A study of Talpa occidentalis with 24 samples.

Results

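The chromatin of the ovarian part of the mole ovotestis was compared, position by position, with that of the testicular part of the same kind of gonad. Both were described by 1 of 7 chromatin states in every bin of 200 bp, and all bins outside scaffolds 15 and 18 of the assembly talOcc4 were taken. That gave 9956704 of the 10493388 segmented bins, or 1991 Mb on 4452 scaffolds. Scaffolds 15 and 18 were set aside because an earlier look at these data had found their state profiles to stand apart. Clustering along the genome was followed on 16 large scaffolds (1 to 14, 16 and 17), which hold 9580688 bins.

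The animals were wild-type Iberian moles, Talpa occidentalis, at postnatal day 7. In this species the females carry ovotestes. ChIP-seq, the sequencing of DNA recovered with an antibody to a chromatin mark, was carried out on whole fixed tissue for 4 histone marks with 2 replicates each, so that 8 libraries stand behind the ovarian part, 8 behind the testicular part and 8 behind the testis, which serves here as a separate readout that played no role in choosing the bins. The labels do not say how many animals a library pooled, nor from which animals the parts came. The authors merged the libraries of a tissue into 1 segmentation, and so each value below rests on 1 segmentation per part, has no replicate error and could not be tested. The depth behind the calls is unknown.

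As general background on mole ovotestes, the ovarian part holds the follicles, whereas the testicular part is sterile and rich in Leydig cells, the source of androgens. The labels do not say how far this holds at postnatal day 7. Trimethylation of histone H3 at lysine 4 (H3K4me3) marks promoters, monomethylation at the same residue (H3K4me1) marks enhancers, and acetylation at lysine 27 (H3K27ac) separates active enhancers from those that are only poised. Polycomb complexes place H3K27me3 on silenced developmental genes, and promoters that carry it together with H3K4me3 are called bivalent. A whole tissue mixes cell types, so that a change in the share of a cell type and a change within a cell type cannot be told apart here.

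Below, promoter and active enhancer are together called active, and Polycomb repression and bivalent promoter are together called repressed. A change is named from the ovarian to the testicular part, which is a convention and not an order in time. Regions are given by talOcc4 position, counted from 1, because neither the deposited gene models nor the reference gene table lies on that assembly, and no gene names could be attached.

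In 2411783 bins, 24.2% of the total, the state differed between the parts. The share was similar on all 16 large scaffolds, from 21.5% on scaffold 6 to 27.7% on scaffold 12, with a median of 24.9%. Exchange between poised enhancer and undefined chromatin made up 57.8% of the changed bins, and it was nearly balanced, with 692793 bins poised in the ovarian part alone and 701133 poised in the testicular part alone. Exchange between active and poised enhancer followed with 13.4%, Polycomb and undefined with 12.9%, undefined and gap with 8.53%, and poised enhancer and Polycomb with 3.26%. These 5 of the 21 possible exchanges accounted for 95.9% of all changed bins. What the gap state covers is not given in the sources used here, and without bins in that state the changed share was 23.8%.

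How well a state was kept depended on the state. Of the bivalent promoter bins of the ovarian part, 76.4% kept that state in the testicular part. The figure was 73.7% for promoters, 70.2% for active enhancers, 57.7% for poised enhancers and 55.5% for Polycomb. The undefined state, which covers 60.0% of the ovarian part, was kept at 84.2%. Read from the testicular part, the order differed. There 83.4% of promoter bins and 78.5% of bivalent bins were in the same state in the ovarian part, but only 50.6% of active enhancer bins were.

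**Figure D1:**
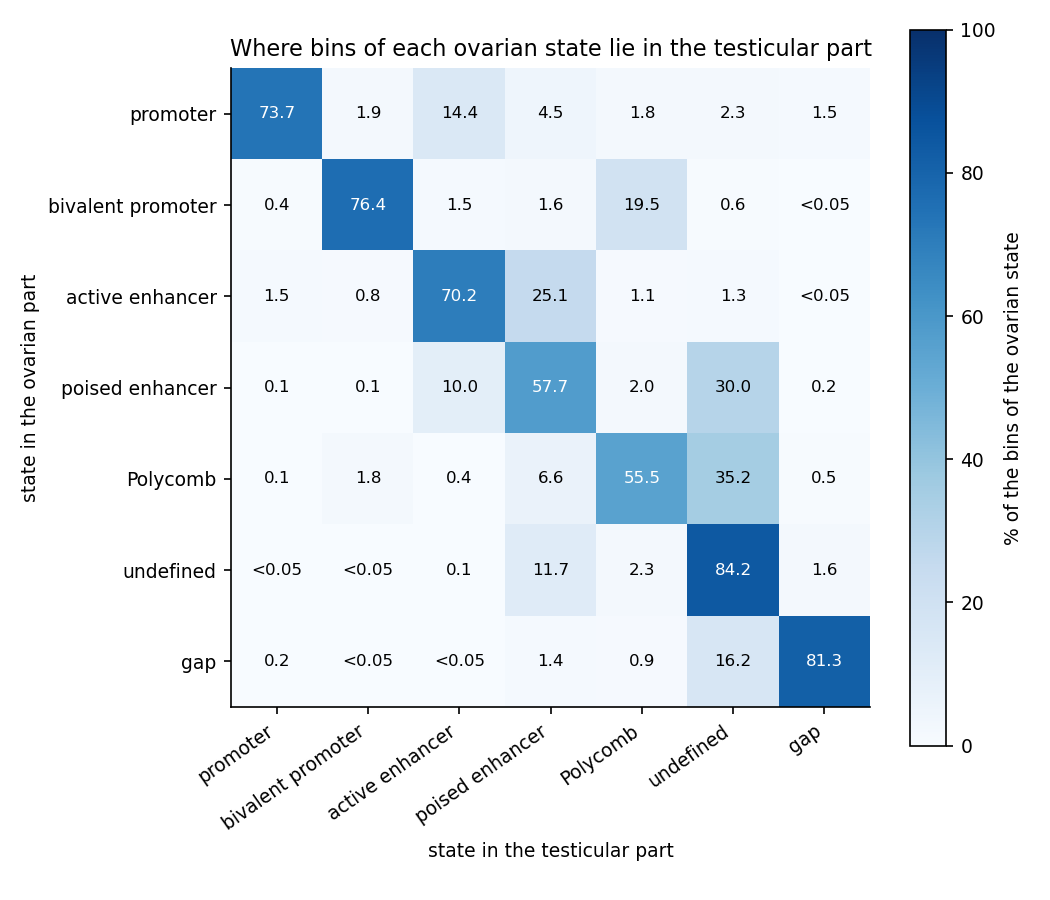
Share of the bins of each ovarian state (rows) found in each state of the testicular part (columns), in percent of the row; each row sums to 100. The diagonal runs from 55.5% for Polycomb to 84.2% for undefined chromatin, and most of what left the poised enhancer and Polycomb states lay in undefined chromatin.

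Bins that were active enhancer in one part alone were usually poised enhancer in the other. Of the 251944 bins that were active enhancer in the testicular part alone, 230592 were poised on the ovarian side. Of the 109610 of the ovarian part alone, 92244 were poised on the testicular side. The first exchange thus covered 2.50 times as many bins as the reverse. The ratio was above 1 on each of the 16 large scaffolds, from 1.39 on scaffold 17 to 3.80 on scaffold 6. The testicular part has more active enhancer bins in total, 509594 against 367260. Dividing each count by the totals of the states involved left a ratio of 1.69. Of all active enhancer bins of the ovarian part, 25.1% were poised on the testicular side and 1.26% were undefined.

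The surplus of active enhancer in the testicular part came more from longer segments than from more of them. The testicular part had 65642 active enhancer segments against 61116 in the ovarian part, 1.07 times as many, whereas the mean length was 1553 bp against 1202 bp, 1.29 times. The median was 1200 bp in the testicular part and 800 bp in the ovarian part. Single-bin segments made up 7.01% of the first and 12.99% of the second. When single-bin segments of any state lying inside another segment were filled in, the ovarian median rose to 1000 bp and the testicular one stayed at 1200 bp. This filling also joins active enhancer segments that a single bin of another state had split. An active enhancer of the ovarian part lay wholly inside active enhancer of the testicular part in 44.6% of cases, and one of the testicular part wholly inside active enhancer of the ovarian part in 19.9%.

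Promoters went the other way in number but not in length. The ovarian part had 19785 promoter segments and the testicular part 16691, with a median of 600 bp in both. In the ovarian part 4743 of them (23.97%) touched no promoter bin of the testicular part, against 1824 (10.9%) in the opposite direction. The 9504 promoter bins of the ovarian part that were active enhancer in the testicular part exceeded the 5670 of the reverse exchange, a move between neighbouring active states. Of those 9504 bins, 68.6% were active enhancer in the testis as well and 24.7% promoter. The 5670 bins of the reverse exchange were also mainly active enhancer in the testis, 53.4% against 42.5% promoter.

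Exchange between active and repressed chromatin was rare and one-sided. Active bins of the ovarian part were repressed in the testicular part in 9449 cases, and the opposite held in 3518, a ratio of 0.372 for repressed to active over active to repressed. It was below 1 on all 16 large scaffolds, from 0.231 on scaffold 13 to 0.804 on scaffold 9. This ran against the larger active total of the testicular part, and after scaling to the totals of the states the ratio was 0.276. Each of the pairs behind it leaned the same way. Promoters of the ovarian part were bivalent on the other side in 1258 bins, with 298 for the reverse, and lay under Polycomb in 1158 against 257. Active enhancers were bivalent in 2888 against 1061 and under Polycomb in 4145 against 1902.

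The Polycomb state itself was nearly equal in amount, with 497034 ovarian and 483049 testicular bins, but it was one of the least shared in place. The ovarian part alone held 221417 Polycomb bins and the testicular part alone 207432, a ratio of gained to lost of 0.937. It was above 1 on 7 of the 16 scaffolds and ranged from 0.626 on scaffold 12 to 1.47 on scaffold 2, so that no common direction was seen. Most of the exchange was with undefined chromatin, 175133 bins lost to it and 136263 gained from it. With poised enhancers the balance was reversed, 32591 bins lost and 46143 gained. Bivalent promoters of the ovarian part were under Polycomb alone in 13687 bins of the testicular part, against 9015 in the opposite direction.

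**Figure D2:**
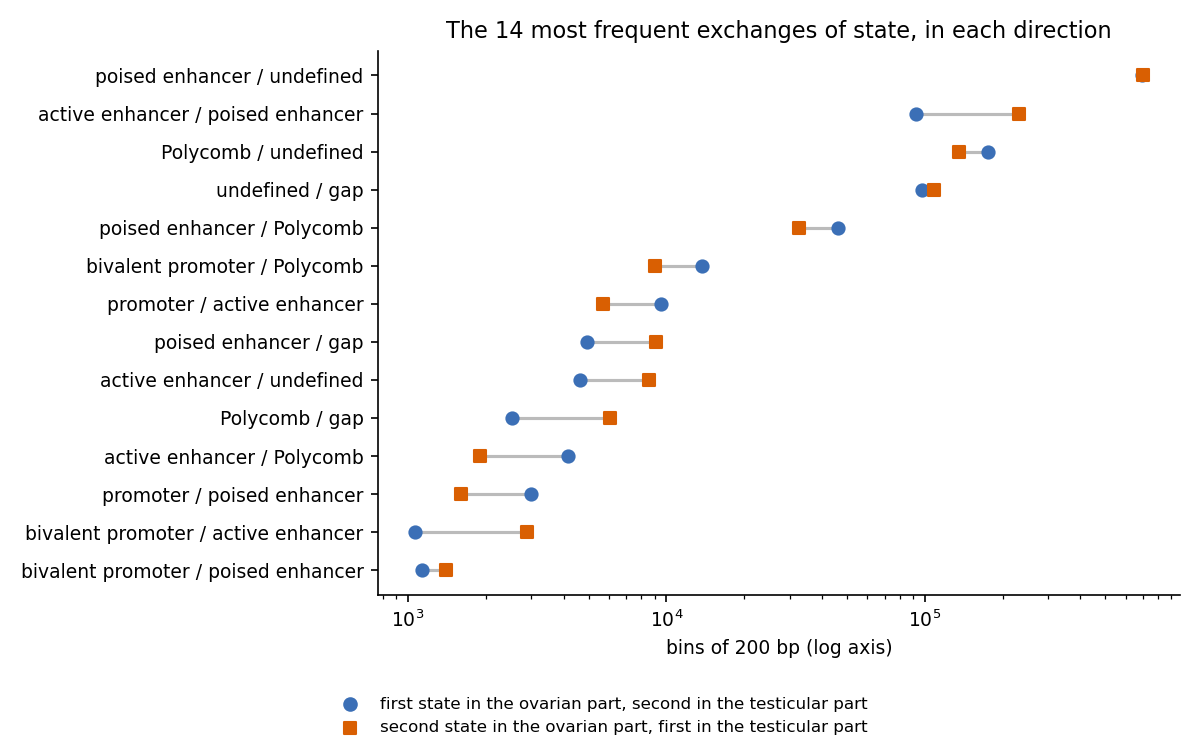
Number of bins of 200 bp in each direction for the 14 most frequent exchanges, on a log axis; blue circles, first state in the ovarian part and second in the testicular part; orange squares, the reverse. The circle and square nearly coincide for poised enhancer and undefined (692793 and 701133 bins), and lie far apart for active and poised enhancer (92244 and 230592 bins).

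Changed bins were sorted by whether the segment around them existed in both parts. A changed bin was called a moved boundary when both the ovarian and the testicular segment around it overlap a segment of the same state in the other part. Of the changed bins, 36.4% were moved boundaries, 31.8% lay in a segment of the ovarian part with no counterpart in the testicular part, 27.5% in a segment of the testicular part with no counterpart, and in 4.29% neither segment had one. The mix differed by kind of change. For poised to active enhancer, 48.3% of bins lay in an active segment new to the testicular part and 38.5% were boundaries that had moved. For active to repressed bins, 48.5% had no counterpart on either side and 5.47% were moved boundaries.

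Longer segments mostly touched the same state in the other part more often. For Polycomb of the ovarian part, the share of bases in common did not rise with length. An active enhancer of a single bin in the ovarian part touched an active enhancer of the testicular part in 48.9% of cases. That share was 79.7% at 1000 to 1800 bp, 91.3% at 2000 to 4800 bp, and all 77 segments of 10 kb or more did. Promoters reached 94.0% at 1000 to 1800 bp, from 44.7% for single bins. For Polycomb segments of the ovarian part the share was 58.0% for single bins, 65.5% at 2000 to 4800 bp and 80.6% for the 1538 segments of 10 kb or more. The share of their bases in common hardly depended on length, 58.0% for single bins and 55.9% for those of 10 kb or more. In the testicular part 94.9% of the 1340 Polycomb segments of 10 kb or more touched Polycomb of the ovarian part, with 71.7% of bases in common. For single bins of the testicular part both shares were 53.7%. A long segment has more room to touch another by position alone, so that the share of bases is the closer comparison between lengths.

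Sharing also varied with the distance from a promoter that both parts share. Such promoters were chosen by agreement between the parts, so that agreement close to them is partly built in. Promoter and bivalent promoter were not separated for this. Taken from the nearest promoter or bivalent promoter bin that both parts share, Polycomb bins of the ovarian part were kept at 77.3% within 1 kb, 85.9% at 1 to 2 kb, 81.4% at 2 to 5 kb, 69.8% at 5 to 10 kb, 46.2% at 50 to 100 kb and 38.4% beyond 100 kb. For active enhancers of the testicular part the share was 69.6% within 1 kb and 38.4% beyond 100 kb. For those of the ovarian part the difference was smaller, with 76.6% within 1 kb and 66.7% beyond 100 kb. The poised-to-active ratio was between 1.67 and 1.91 within 10 kb, 2.35 at 10 to 50 kb and 3.31 beyond 100 kb. In amount, active enhancer covered 28.2% of ovarian and 31.0% of testicular bins within 1 kb, and 1.72% and 2.98% beyond 100 kb. The surplus of the testicular part was thus larger in percentage points within 1 kb and larger as a ratio beyond 100 kb. In points it did not fall steadily with distance. Active enhancer covered 5.38% of ovarian and 6.54% of testicular bins at 5 to 10 kb, and 3.56% and 5.30% at 50 to 100 kb. Polycomb covered 18.5% of ovarian and 21.8% of testicular bins within 1 kb and 3.60% and 2.88% beyond 100 kb, higher in the testicular part near and in the ovarian part far away.

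**Figure D3:**
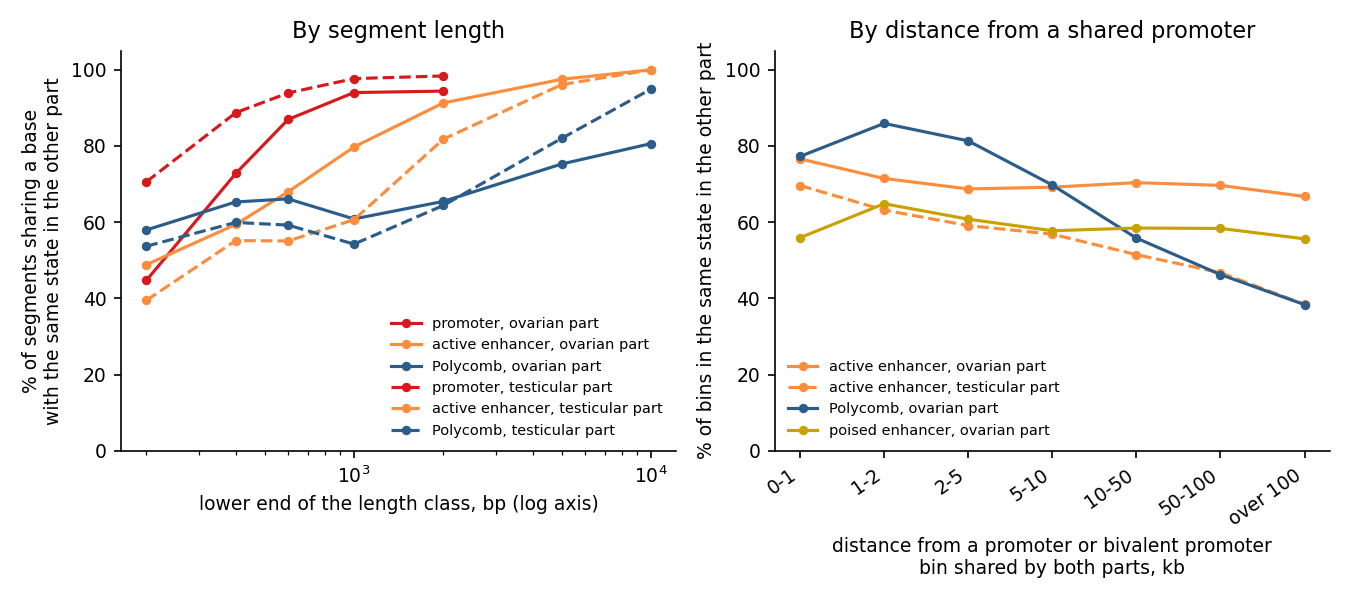
Left, percent of segments that share at least 1 base with the same state in the other part, by segment length on a log axis; classes with fewer than 20 segments are not drawn. Right, percent of bins in the same state in the other part, by distance from a promoter or bivalent promoter bin shared by both parts; solid lines start from the ovarian part and dashed lines from the testicular part. Polycomb bins of the ovarian part are at 77.3% within 1 kb, highest at 1 to 2 kb with 85.9%, and at 38.4% beyond 100 kb, while active enhancers of the ovarian part stay between 66.7% and 76.6%.

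The changed bins formed 457876 runs, with a median of 600 bp and a longest run of 67.4 kb. Single-bin runs held 4.97% of changed bins, and runs of at least 2 kb held 48.7%. Among the 8 kinds of switch followed, runs were longest where Polycomb gave way to undefined chromatin, up to 36.0 kb, and shortest between active and repressed chromatin, up to 5.40 kb. Of runs of at least 2 kb, 100 went from active to repressed and 56 from repressed to active.

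Changed bins were clustered along the scaffolds, and each kind in its own way. In 18778 windows of 100 kb, counting bins outside the gap state, a median of 23.3% of bins changed, with a range from 0% to 88.9%. The SD over windows was 11.3 percentage points, and it was 8.49 once the value set by the mix of ovarian states in each window had been subtracted. Adjoining windows were correlated with r = 0.528 over 18695 pairs, given as a description since neighbours share chromatin composition and segments. The most changed 10% of windows held 19.2% of changed bins. For single kinds of change, the richest 10% held more, with 20.2% for poised enhancer and undefined, 46.0% for poised to active enhancer, 62.2% for Polycomb gained and 68.0% for Polycomb lost. Rare kinds reach high values here by their number alone, since active to repressed bins occurred in 1416 windows in all.

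The distance over which a change recurred separated the kinds further. Like the window shares by kind above, these rates do not allow for where the starting state of a change lies. Clustering of a state and clustering of its change cannot be told apart in them. Polycomb was lost in 2.35% of all bins, but in 20.2% of bins 10 kb from a bin that had lost it, in 8.05% at 100 kb and in 3.25% at 1 Mb. For poised to active enhancer the corresponding values were 2.52% of all bins, 8.04% at 10 kb, 4.92% at 100 kb and 2.78% at 1 Mb, close to the level in all bins. Active to repressed bins made up 0.0984% of bins and 2.02% of those 100 kb from another, still 1.18% at 1 Mb, which is 90 of 7655 pairs. Repressed to active bins recurred at 0.389% at 100 kb, from 0.0374% of all bins, and in only 1 of 3014 pairs at 1 Mb. Of the 18778 windows, 7962 had gained Polycomb, 8051 had lost it and 5181 had both. Poised to active enhancer occurred in 12941, the reverse in 10212 and both in 8493. Repressed to active occurred in 672, the reverse in 1416 and both in 188.

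**Figure D4:**
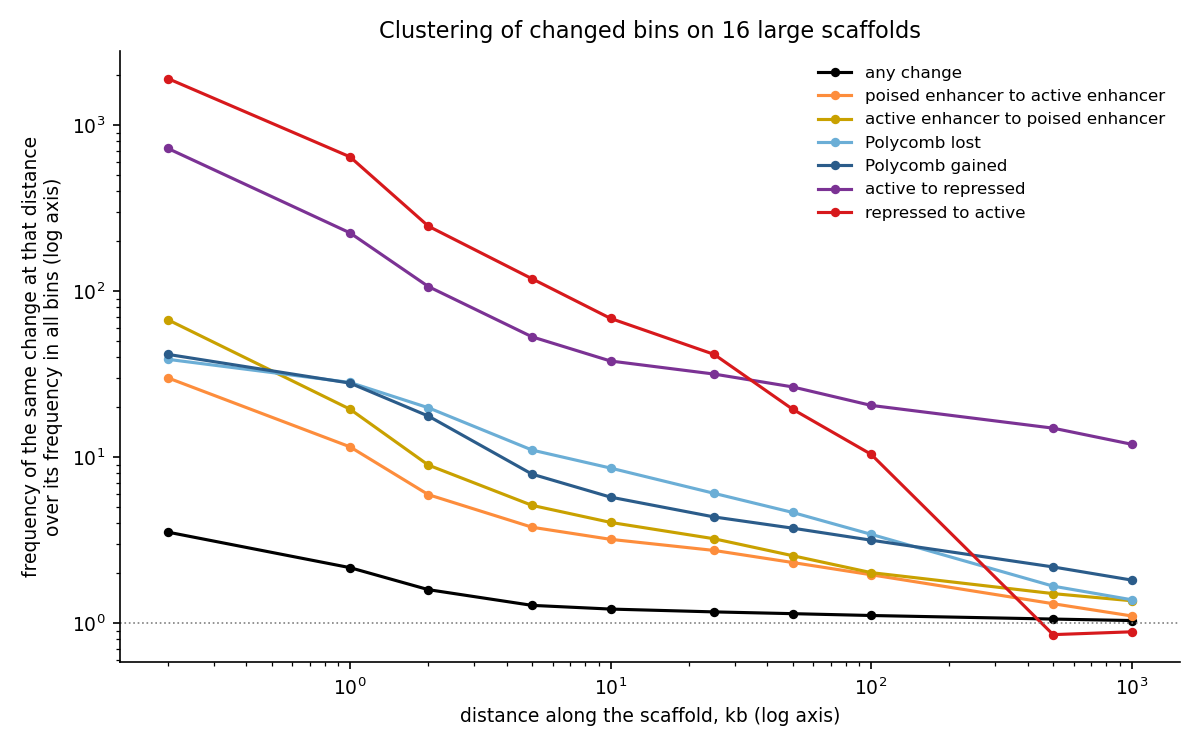
For all changes and for 6 kinds of change, how often a bin at a given distance (log axis, kb) from a changed bin changed in the same way, divided by the frequency of that change in all bins of the 16 large scaffolds (log axis; the dotted line marks 1). Bins in gap state in either part were left out. Active to repressed is at 11.95 at 1 Mb, whereas repressed to active is below 1 there, on 1 pair of bins.

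The wide recurrence of active to repressed bins came in part from 1 stretch of scaffold 2. Among 1923 windows of 1 Mb, 22 on 7 scaffolds carried at least 10% bivalent promoter state in both parts, and 12 of these adjoined each other from 30000201 to 42000200 on scaffold 2. The next longest such row was 2 windows. The limit of 10% was set after the profile had been seen. The stretch is 0.626% of the bins of the 16 scaffolds and held 24.05% of their active to repressed bins, 2117 against 381 in the reverse direction. Bivalent promoter is one of the repressed states and was used to choose the stretch, so that this large share is partly built in. That state covered 22.3% of testicular bins in the stretch and 0.480% in the other bins of the 16 scaffolds. It changed state in 38.2% of bins, against 24.3% in the others.

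Within the stretch Polycomb covered 18.7% of ovarian bins, 32.9% of testicular bins and 28.9% of testis bins. It was higher in the testicular part in each of the 12 windows. The ovarian part ranged from 13.6% to 23.4% and the testicular part from 26.6% to 46.7%. These windows adjoin, are not replicates and were picked by a limit set after the profile had been seen. Over the 18778 windows of 100 kb, more Polycomb was gained than lost in 5425 and more lost than gained in 5265. Within the stretch Polycomb was gained in 11304 bins and lost in 2811, a ratio of 4.02, whereas the other bins of scaffold 2 had a ratio of 0.966. The gain came with less poised enhancer, 13.4% on the ovarian and 6.69% on the testicular side, and less undefined chromatin, 20.2% and 14.8%. The gap state was also lower on the testicular side, 19.5% and 16.7%, and it was more frequent than in the other bins of the 16 scaffolds, where it covered 5.46% and 5.34%. Its part in the gain of Polycomb was not tested. Bivalent promoter state was 19.9% and 22.3%, and active enhancer 7.60% and 6.08% in the same order. The testis had 7.89% of poised enhancer there and 7.19% of active enhancer.

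Without the stretch, active to repressed bins still outnumbered the reverse 6686 to 2966 on the large scaffolds, 2.25 times. At 1 Mb they recurred at 0.573%, 38 of 6627 pairs, against 0.0702% of all those bins. These rates count gap bins, whereas the 1.18% and 0.0984% given above with the stretch leave them out. The rates with and without the stretch are thus not on the same base. Over all scaffolds, the ratio of Polycomb gained to lost went from 0.937 to 0.897 and that of repressed to active over active to repressed from 0.372 to 0.428.

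Of the other bivalent-rich windows, 3 on scaffolds 13 and 14 were among the 5 richest in Polycomb gained or in active to repressed bins. On scaffold 14 from 23000201 to 24000200, the bivalent state covered 30.6% of ovarian and 10.3% of testicular bins, while Polycomb went from 38.6% to 50.7% and was 58.6% in the testis. The longest bivalent segment of the ovarian part with no bivalent bin opposite, 6 kb from 23990801 to 23996800 on that scaffold, was entirely Polycomb in the testicular part. In the next window, from 24000201 to 25000200, 240 bins went from active to repressed, with 22.5% bivalent and 37.1% Polycomb in the ovarian part against 15.7% and 36.3% in the testicular part. On scaffold 13 from 54000201 to 55000200, 231 bins did so, and the corresponding values were 17.6% and 30.4% against 13.2% and 44.7%. All 3 windows had less bivalent state in the testicular part, unlike the stretch as a whole. In the testis that state covered 17.2%, 23.5% and 16.8% of bins, in the order given. Polycomb was higher in the testicular part in 2 of them. The windows were picked for Polycomb gained or active to repressed bins, which favours that outcome. The remaining bivalent-rich windows are not described here.

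The testis was then read at the changed bins. It had the state of the testicular part in 54.5% of them, that of the ovarian part in 39.1% and neither in 6.41%. On each of the 16 large scaffolds the share as in the testicular part was the larger. At bins that had not changed, the testis had the common state in 84.1%. In segments of the ovarian part with no counterpart, the testis had the state of the testicular part in 65.3% of bins and that of the ovarian part in 27.7%. For segments found only in the testicular part the order was reversed, 43.4% as the testicular part and 50.4% as the ovarian part. In both cases the testis more often had the state of the part that lacked the segment.

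The next values concern bins that were active in the ovarian part and repressed on the testicular side. Here the testis was repressed in 72.7% of bins and active in 15.9%, while over all bins it was repressed in 8.72%. In the opposite switch it was active in 42.2% and repressed in 34.5%, against 6.04% active over all bins. For poised to active enhancer it was active enhancer in 55.1% and poised in 42.5%. For active to poised enhancer it was poised in 59.7% and active enhancer in 31.3%. In runs of at least 2 kb the figure for poised to active enhancer was 62.1%.

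For Polycomb, the testis differed with the state exchanged. Bins that went from undefined to Polycomb were Polycomb in the testis in 62.9%, and from poised enhancer to Polycomb in 63.9%. Bins that went from Polycomb to undefined were Polycomb in the testis in 42.1% and undefined in 51.3%. Those that went from Polycomb to poised enhancer were Polycomb in 28.3%, poised in 45.8% and undefined in 20.03%. The testis carries more Polycomb outside scaffolds 15 and 18 than either part, 7.94% of bins, and the part of that difference in these shares was not tested.

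In windows of 100 kb the changes in active states pointed mostly one way. Active states were at least 10 percentage points higher in the testicular part in 834 windows, 4.44% of those counted, and at least that much higher in the ovarian part in 133, 0.708%. The testis was nearer to the testicular part in 616 of the 834 and in 94 of the 133. Polycomb was at least 10 points higher in the testicular part in 729 windows, 3.88%, and higher in the ovarian part in 888, 4.73%. Here the testis was nearer to the testicular part in 593 of the 729 and in 526 of the 888. All 16 scaffolds held windows of each of the 4 kinds.

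Single regions show what these switches look like. They are the longest runs of each kind and the most changed windows, chosen by size alone from the same comparison, so that their size is a description. Only the testis values are a separate readout.

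The longest repressed-to-active run lay on scaffold 17 from 21284401 to 21289600. Over its 5200 bp the ovarian part was bivalent promoter and Polycomb, the testicular part was active enhancer throughout, and the testis was active enhancer in 76.9% and poised in 23.1%. Over the run and 10 kb on each side, Polycomb covered 67.5% in the ovarian part and 0% in both other tissues. The second, on scaffold 14 from 8954201 to 8959200, differed in the testis. It was likewise bivalent and Polycomb in the ovarian part and active enhancer in the testicular part, but the testis was repressed in 100% of it. On scaffold 7 runs of 3.80 kb lay at 107874401 to 107878200, active enhancer in 100% in the testis, and at 107968801 to 107972600, where the testicular part was promoter and the testis 78.9% repressed. Of the 5 longest such runs, the testis was mainly active in 3 and mainly repressed in 2.

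The longest active-to-repressed run, on scaffold 8 from 8632801 to 8638200, was promoter and active enhancer over 5.40 kb in the ovarian part. The testicular part was bivalent promoter and Polycomb there, and the testis was bivalent in 77.8% and Polycomb in 18.5%. A run of 4.60 kb on scaffold 3 from 75156601 to 75161200 and a run of 4400 bp on scaffold 14 from 24944601 to 24949000 were repressed in 100% of bins in the testis. Of the remaining 2 of the 5, the run on scaffold 3 from 105737601 to 105742800 was split in the testis, 53.8% promoter and 46.2% bivalent. The run on scaffold 2 from 35462001 to 35466400, inside the bivalent-rich stretch, was active in 68.2%.

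Runs from poised to active enhancer reached 10 kb, on scaffold 11 from 74643601 to 74653600. This run was poised in the ovarian part and 86.0% poised in the testis too, and it adjoined an active enhancer found in both parts. Runs of 9.40 kb on scaffold 12 from 55938601 to 55948000 and of 8.80 kb on scaffold 9 from 83007201 to 83016000 were active enhancer in the testis in 57.4% and 70.5%. A run of 8.80 kb on scaffold 10 from 57794201 to 57803000 was active enhancer there in 22.7% and poised in 77.3%. Of the 5 longest, the testis was mainly active enhancer in 3 and mainly poised in 2. In the opposite direction the longest run, 8 kb on scaffold 7 from 61341001 to 61349000, was 37.5% active enhancer in the testis, and each of the 5 longest was mainly poised there. The 1 Mb window with most poised-to-active bins, 878 where the median window had 95, was on scaffold 11 from 74000201 to 75000200.

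Of the 8 kinds of switch followed, loss of Polycomb to undefined chromatin had the longest runs. On scaffold 9 from 92232801 to 92268800, 36.0 kb of ovarian Polycomb were undefined on the testicular side, and the testis was 79.4% undefined and 20.6% poised. On scaffold 12 from 88057401 to 88088800, 31.4 kb were undefined in 100% of bins in the testis. A run of 16.2 kb on scaffold 3 from 24099801 to 24116000 was Polycomb in the ovarian part and poised enhancer on the testicular side. The testis was 81.5% poised and 17.3% active enhancer over it. It began just before a window, from 24100201 to 24200200, that was 88.7% Polycomb and 9.88% bivalent in the ovarian part. The testicular values of that window were 16.1% Polycomb, 51.2% poised and 7.86% active, and in the testis 12.3%, 55.6% and 19.96%.

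Not all lost Polycomb was absent from the testis. On scaffold 2 from 144600201 to 144700200, a window was 74.4% Polycomb in the ovarian part and again 76.9% in the testis, but 0% in the testicular part. On scaffold 1 from 110100201 to 110200200 it was 87.3% in the ovarian part, 8.89% on the testicular side and 47.5% in the testis.

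Gained Polycomb was densest on scaffold 5 and inside the stretch on scaffold 2. On scaffold 5, 3 adjoining windows from 133000201 to 133300200 had 0%, 6.56% and 23.9% ovarian Polycomb against 63.5%, 70.9% and 85.5% testicular Polycomb. The testis had 52.5%, 28.3% and 66.0% there, between the parts in all 3. Poised enhancer in the same windows went from 37.1%, 30.1% and 25.4% to 7.71%, 12.5% and 2.04%. The most changed window of all was on scaffold 2 from 32000201 to 32100200, where 88.9% of 459 counted bins changed and Polycomb went from 3.05% to 66.9%, with 25.1% in the testis. The longest single run from undefined to Polycomb, 24.6 kb on scaffold 7 from 129523401 to 129548000, was 62.6% Polycomb in the testis.

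At the other end, the 5 least changed windows, taken in scaffold order among ties, lay on scaffolds 1, 2, 3 and 4 and had no changed bin among 416 to 498 counted. They were at least 99.8% undefined in both parts and at least 97.1% undefined in the testis. Of the 18778 windows, 563 changed in under 5% of bins and 380 in at least 50%. The most changed 10% of windows were 11.98% Polycomb and 36.0% poised enhancer in the ovarian part, the least changed 10% were 1.68% and 5.31%.

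**Figure D5:**
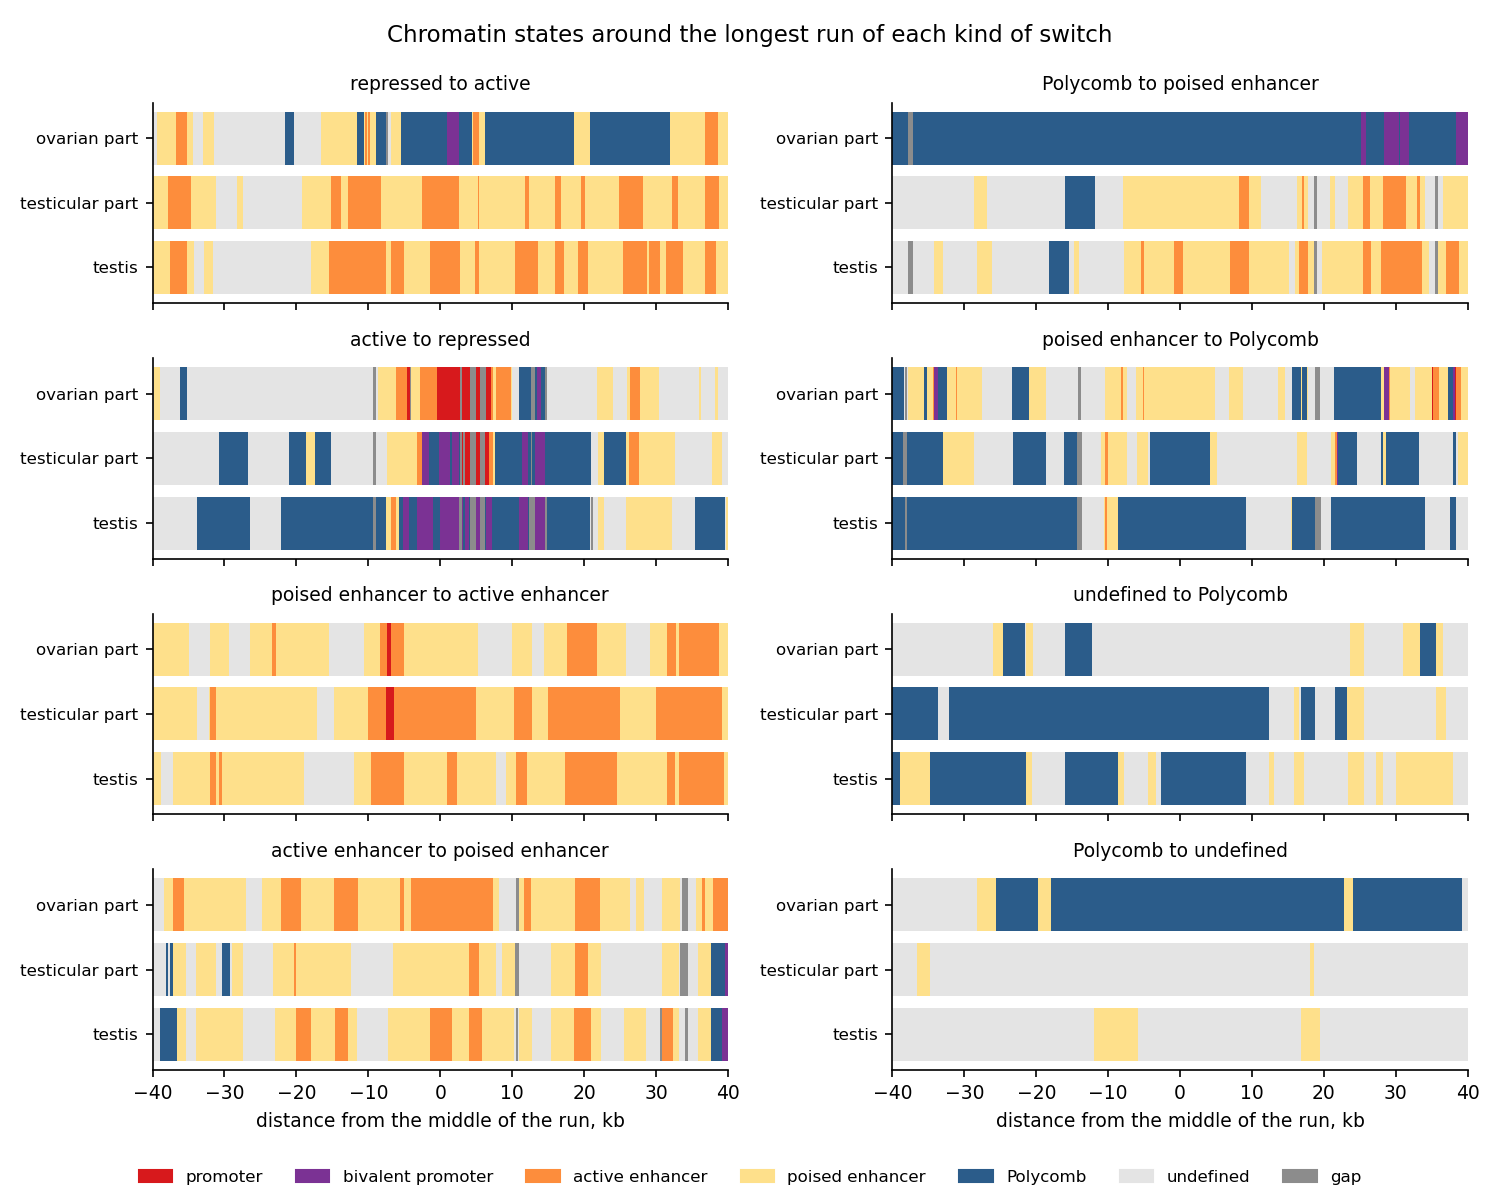
States of the 3 tissues (rows: ovarian part, testicular part, testis) within 40 kb of the middle of the longest run of each of the 8 kinds of switch (horizontal axis, kb). The run from Polycomb to undefined on scaffold 9 spans 36.0 kb with no Polycomb in both other tissues, whereas the 10 kb run from poised to active enhancer on scaffold 11 is 86.0% poised in the testis.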

How the data were processed

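Per the labels' protocols, whole gonads were fixed in formaldehyde, sonicated and immunoprecipitated for the 4 marks. Without a role, STAR 2.6.1d and mm9 (a mouse build) stand in the submitters' processing notes. The deposited mole tables have no header and hold state names (a category, with no count, score or depth). The authors made 1 table per tissue from its 8 libraries, per the labels. How marks define a state and which tool made the mole tables is not given in the sources used here.

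Segments were cut into bins of 200 bp and compared between the parts with Python 3.11.15, numpy 2.4.6 and pandas 2.3.3. The code was tested on simulated segmentations. No tests were made. Named regions are the 5 longest runs of each of 8 kinds of switch, and the 5 most and 5 least changed windows of 100 kb with at least 250 bins not in gap state. The windows richest in a kind of change, and the 1 Mb windows, were added after the data had been seen. Members, lists and rules were chosen with earlier results of these data known. Genes and sequences on talOcc4 were not analysed here.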

Additional observations from a re-analysis of the deposited data

How the results depend on the processing

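Alternatives were run for the shares, ratios, medians and run counts named here and for the median active enhancer of the testicular part. None of these changed direction. The testis shares by kind of change, the values by distance and the counts of windows were not recomputed. Recurrence was recomputed only without the bivalent-rich stretch of scaffold 2, for switches between active and repressed. Of the 57 alternative values, 25 lay within the 95% binomial interval of the value given (medians and shares of windows were equal as printed, counts within 1.5 times). With so many bins such intervals are narrow, and they cover counting only. The share of changed bins was 23.9% with scaffolds 15 and 18 included, 24.4% on the 16 large scaffolds alone, 23.8% without gap bins, 18.9% without bins next to a segment boundary, 24.1% with single-bin segments filled in (24.13%) and 24.1% (24.14%) without the bivalent-rich stretch of scaffold 2. Leaving that stretch out was chosen after seeing the data. Moved boundaries were 36.1% of changed bins with scaffolds 15 and 18 and 36.6% on the large scaffolds. The ratio of poised to active over active to poised enhancer was 3.08 without boundary bins, 2.54 with single bins filled and 1.69 after scaling to the totals of the states. The ratio of repressed to active over active to repressed was 0.433 with scaffolds 15 and 18, 0.462 without boundary bins, 0.428 without the stretch and 0.276 after scaling. Polycomb gained over lost was 0.882 with scaffolds 15 and 18, 0.920 without gap bins, 0.842 without boundary bins and 0.897 without the stretch. With single bins filled, the median active enhancer of the ovarian part was 1000 bp and single-bin runs held 3.68% of changed bins, which was 4.90% on the large scaffolds. The most changed 10% of windows held 21.0% at 50 kb (20.97%) and 16.2% at 500 kb. Runs from repressed to active numbered 225 at 1 kb or more and 2 at 4 kb or more, and those from active to repressed 585 and 6. The testis had the state of the testicular part in 54.0% (53.96%) of changed bins with scaffolds 15 and 18, 54.7% on the large scaffolds, 55.8% without gap bins and 56.6% without boundary bins. The cause of these shifts was not tested. No paired analysis was possible because each tissue has 1 segmentation that pools both replicates, and so no replicate could be left out. Depth is unknown, and a call that failed for want of reads cannot be told apart from an absent mark.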

Other observations

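Different kinds of change were also read against each other by distance. Of the bins 10 kb beyond a bin that had gained Polycomb, 4.42% had lost it, against 2.35% of all bins. Of those 10 kb beyond a bin that had lost Polycomb, 1.56% went from poised to active enhancer, against 2.52% of all bins. Of those 100 kb beyond a repressed-to-active bin, 34 of 3084 (1.10%) were active to repressed, against 0.0984% of all bins. These rates likewise do not allow for where the starting states lie. The last was not recomputed without the bivalent-rich stretch of scaffold 2.

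At some exchanges the testis had neither state. Of the bins that were undefined in the ovarian part and active enhancer in the testicular part, 58.9% were poised enhancer in the testis. Of those that were active enhancer in the ovarian part and undefined in the testicular part, 47.3% were poised there.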
